A study of Mus musculus with 10 samples.

Results

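*Scx*, *Mkx*, *Tnmd*, *C1qtnf3* and *Prss35* are 5 of the 53465 genes in a table of read counts from the mouse pinna prominence, the outgrowth that forms the external ear. They were taken by gene symbol as genes of tendon and of the perimysium, the connective tissue sheath around bundles of muscle fibres. All 5 passed the filter on low counts and were among the 16426 genes tested. Whole pinna prominences were micro-dissected at the embryonic stage E14.5 from wild-type (WT) C57BL/6J embryos and from mEC1dup/dup embryos, in which CRISPR/Cas9 knock-in placed an additional copy of the *Hmx1* enhancer mEC1 on each allele. Each genotype had 5 libraries from independent embryos. The knock-in is present in every cell, so the comparison is not limited to one cell type, and each library mixes skin, cartilage, muscle and connective tissue. The comparison asked how the transcript levels of these genes differ between the genotypes.

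Tendons join muscle to skeleton, and their cells come from progenitors that switch on *Scx* under signals of the TGF-beta and FGF families. Scleraxis, the basic helix-loop-helix protein encoded by *Scx*, marks these progenitors and binds DNA at E-boxes, and the homeodomain protein Mohawk, encoded by *Mkx*, acts with it on collagen and small proteoglycan genes as tendon matures. Tenomodulin, the product of *Tnmd*, is a membrane glycoprotein of differentiated tendon cells and depends on scleraxis in developing tendon. *C1qtnf3* encodes a secreted protein of the C1q and tumour necrosis factor family, also called CTRP3, and *Prss35* encodes a secreted member of the serine protease family that lacks the usual catalytic serine.

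The promoters of the members are shown because scleraxis recognises short letter patterns, so the sequence can be read beside the levels of *Scx* and of the other members. In the table of RefSeq promoters used here, in mouse build GRCm38.p6, 3 of the 5 members were matched, and the 250 bases before the gene start are given 5′ to 3′. The stretch of *Tnmd* is chrX:133850758-133851007, that of *C1qtnf3* is chr15:10952082-10952331 and that of *Prss35* is chr9:86743383-86743632, all on the plus strand. Capitals mark matches to the E-box CANNTG.
Tnmd: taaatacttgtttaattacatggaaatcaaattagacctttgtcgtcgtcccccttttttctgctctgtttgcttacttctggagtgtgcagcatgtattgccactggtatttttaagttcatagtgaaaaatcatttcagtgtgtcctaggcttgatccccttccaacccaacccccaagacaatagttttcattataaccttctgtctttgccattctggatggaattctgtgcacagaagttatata
C1qtnf3: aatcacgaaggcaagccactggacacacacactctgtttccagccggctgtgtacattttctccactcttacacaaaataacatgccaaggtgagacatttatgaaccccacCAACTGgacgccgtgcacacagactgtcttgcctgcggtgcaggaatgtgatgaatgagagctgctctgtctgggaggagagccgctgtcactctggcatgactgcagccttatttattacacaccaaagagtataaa
Prss35: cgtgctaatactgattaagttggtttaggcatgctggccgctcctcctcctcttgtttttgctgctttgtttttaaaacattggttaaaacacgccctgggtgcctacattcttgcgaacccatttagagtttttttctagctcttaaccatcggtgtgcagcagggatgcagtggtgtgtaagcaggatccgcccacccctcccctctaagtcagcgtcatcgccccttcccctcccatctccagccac
The E-box CANNTG was searched on both strands, and 66.2% of the 32851 promoters in the table held at least 1 match within the same 250 bases. The more specific pattern CAAGTG, itself one form of the E-box, was held by 11.6% on either strand. *C1qtnf3* held 1 E-box, which began 138 bases before the gene start, and *Tnmd* and *Prss35* held none. None of the 3 held CAAGTG. A match of letters is not a bound site, and the absence of a match covers this window only.

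Total counts ranged from 17461544 to 18462073 per library. *Hmx1*, the gene next to the enhancer, averaged 26.6 ± 3.0 CPM in WT against 66.2 ± 9.11 CPM in mEC1dup/dup (SD, n = 5 each), and every mEC1dup/dup library was above every WT library. CPM is the read count scaled to a common library size, after TMM normalization. *Xist*, transcribed from the inactive X chromosome, had at most 5 counts in each WT library. It had 12812, 19040 and 18165 counts in mEC1dup/dup replicates 1, 2 and 3, 2096 in replicate 4 and 0 in replicate 5, so sex was not balanced between the genotypes. The percentage of globin counts on embryonic globins was 18.4 to 23.3 in WT and 32.5 to 35.6 in mEC1dup/dup, without overlap. The part of sex or of embryo stage in the results below was not tested apart from genotype, beyond the covariate fits given with the alternatives. The log2 fold change of *Hmx1* was 1.31 without a covariate and 1.04 with *Xist* as a covariate. With the share of embryonic globins it was 0.34, and *Hmx1* was not called.

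Of the 5 genes, *Tnmd* and *C1qtnf3* were called lower in mEC1dup/dup and none was called higher. A gene was called when its p from edgeR's quasi-likelihood test, adjusted by Benjamini-Hochberg, was no higher than 0.05 and its average log2 CPM no lower than 1. Over all genes tested, 1.81% were called lower and 0.834% higher. *Scx*, *Mkx* and *Prss35* did not pass. The median log2 fold change of the 5 genes was -0.17, beside -0.004 over all genes tested. In a bulk sample, fewer cells of a type and less RNA per cell cannot be told apart.

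*Scx* (ENSMUSG00000034161) lies on the plus strand at chr15:76341563-76344281 in GRCm39. Its level was 20.5, 23.5, 21.5, 21.9 and 24.0 CPM in WT replicates 1 to 5. In mEC1dup/dup it was 23.9, 26.2, 26.4, 29.6 and 25.8 CPM. mEC1dup/dup replicates 2 to 5 were above every WT library, and replicate 1 lay just under the highest WT value. The means were 22.3 ± 1.43 CPM in WT and 26.4 ± 2.05 CPM in mEC1dup/dup (SD, n = 5 each). The log2 fold change was 0.24 with a standard error of 0.07, a 95% interval from 0.10 to 0.39 and an adjusted p of 0.0758 in edgeR, short of the threshold. It passed when mEC1dup/dup replicate 1 was left out (log2 fold change 0.28, edgeR adjusted p = 0.0484) and in the Wald test of DESeq2 (log2 fold change 0.25, adjusted p = 0.0390). With *Xist* as a covariate it was 0.25 and not called (edgeR adjusted p = 0.506), and with the share of embryonic globins its direction turned (-0.0099, edgeR adjusted p = 0.997).

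*Mkx* (ENSMUSG00000061013) lies on the minus strand at chr18:6931133-7005516 in GRCm39. Its level was 20.1, 27.1, 20.3, 21.4 and 26.2 CPM in WT and 27.5, 29.3, 29.2, 24.4 and 21.9 CPM in mEC1dup/dup. The groups overlapped, with mEC1dup/dup replicates 4 and 5 inside the WT range and replicates 1 to 3 above it. Its log2 fold change was 0.20 with a standard error of 0.11, a 95% interval from -0.03 to 0.43 and an edgeR adjusted p of 0.388. Its direction turned with *Xist* as a covariate (-0.067, edgeR adjusted p = 0.931) and with the share of embryonic globins (-0.88, edgeR adjusted p = 0.898). Other annotated genes cover 8.71% of the exonic bases of *Mkx*, and 6.65% are covered by genes on the opposite strand, so part of its count may belong to them.

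*Tnmd* (ENSMUSG00000031250) lies on the plus strand at chrX:132751720-132766326 in GRCm39, and no other annotated gene overlaps its exons. Its level was 21.1, 27.2, 17.8, 23.7 and 20.9 CPM in WT. In mEC1dup/dup it was 15.3, 15.6, 15.5, 12.6 and 14.2 CPM. Every mEC1dup/dup library lay below every WT library, an order found in that direction for 2.75% of all genes tested and in the opposite direction for 2.33%. The means were 22.1 ± 3.53 CPM in WT and 14.7 ± 1.26 CPM in mEC1dup/dup (SD, n = 5 each), a ratio of 0.662. The log2 fold change was -0.60 with a standard error of 0.11 and an edgeR adjusted p of 0.0124. It was called in each of the 10 fits that left out 1 library. *Tnmd* is X-linked, and mEC1dup/dup replicate 5, which like the WT libraries had almost no *Xist*, was at 14.2 CPM. No WT library had a high *Xist* count, so the part of sex in the level of *Tnmd* was not tested. With *Xist* as a covariate the log2 fold change of *Tnmd* was -0.69 and was no longer called (edgeR adjusted p = 0.301). *Tnmd* was also not called with the share of embryonic globins as covariate (log2 fold change -1.24, edgeR adjusted p = 0.898).

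*C1qtnf3* (ENSMUSG00000058914) lies on the plus strand at chr15:10952290-10980238 in GRCm39, with 1.79% of its exonic bases covered by a gene on the opposite strand. Its level was 56.2, 110, 91.3, 123 and 87.6 CPM in WT. In mEC1dup/dup it was 30.9, 61.5, 61.9, 58.7 and 45.5 CPM. WT replicate 1 lay within the mEC1dup/dup range, while the other 4 WT libraries lay above every mEC1dup/dup library. The means were 93.7 ± 25.5 CPM in WT and 51.7 ± 13.4 CPM in mEC1dup/dup (SD, n = 5 each), a ratio of 0.552. The log2 fold change of -0.86, with a standard error of 0.21, was the largest in size of the 5 genes. Its edgeR adjusted p of 0.0458 lay close to the threshold. The call was kept without WT replicate 1 (log2 fold change -0.99, edgeR adjusted p = 0.0237) and lost when any one of the other 9 libraries was left out, with log2 fold changes of -0.93 to -0.72 and a highest adjusted p of 0.107. It was also lost in limma-voom (log2 fold change -0.85, adjusted p = 0.0569), with *Xist* as covariate (-0.98, edgeR adjusted p = 0.424) and with the share of embryonic globins as covariate (-2.74, edgeR adjusted p = 0.898). The call was kept in the Wald test of DESeq2 (-0.85, adjusted p = 0.0246) and without the filter (-0.85, edgeR adjusted p = 0.00945). It was also kept with the replicate number as a block (-0.86, edgeR adjusted p = 0.000379).

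*Prss35* (ENSMUSG00000033491) lies on the plus strand at chr9:86617045-86640606 in GRCm39. Its level was 108, 122, 95.4, 102 and 106 CPM in WT and 95.2, 95.3, 94.6, 90.5 and 95.8 CPM in mEC1dup/dup. In mEC1dup/dup 4 libraries lay below every WT library and the fifth just inside the WT range. The mEC1dup/dup values were packed closely, with a coefficient of variation of 2.30% against 9.13% in WT. The log2 fold change was -0.17 with a standard error of 0.05, a 95% interval from -0.29 to -0.06 and an edgeR adjusted p of 0.12, so *Prss35* was not called.

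**Figure D1:**
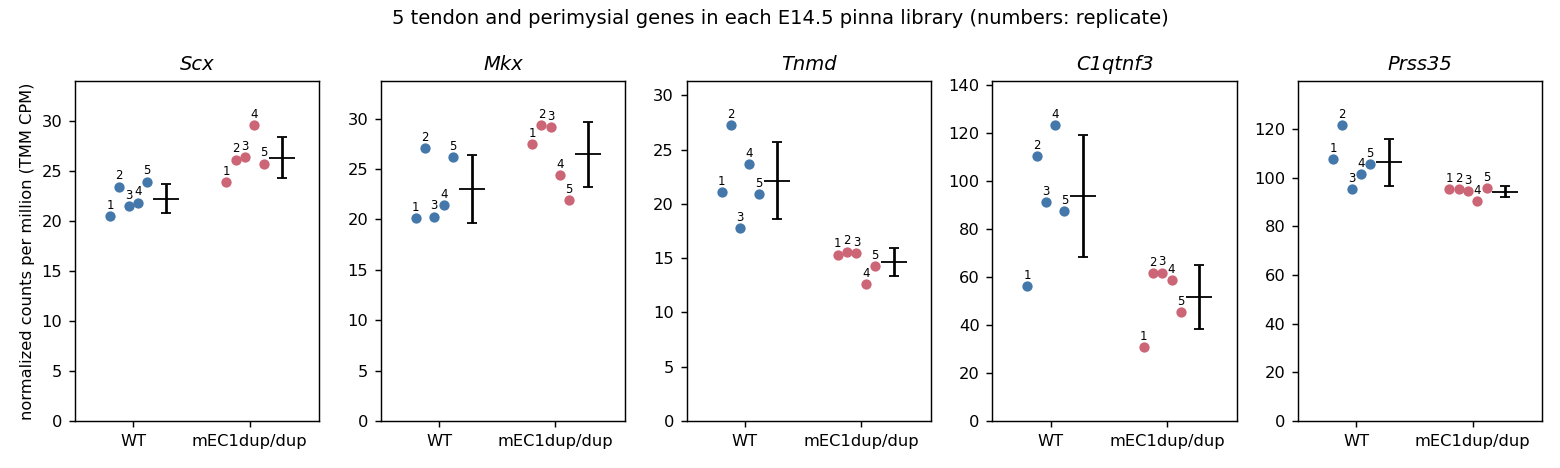
TMM-normalized CPM of *Scx*, *Mkx*, *Tnmd*, *C1qtnf3* and *Prss35* (vertical axes, linear from 0) in each WT library (blue) and mEC1dup/dup library (red), numbered by replicate, with the mean and SD of 5 libraries in black. *Tnmd* separates the genotypes, with 12.6 to 15.6 CPM in mEC1dup/dup and 17.8 to 27.2 CPM in WT, and *C1qtnf3* is lowest in replicate 1 of both genotypes.

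Levels were compared between genes per kilobase of exonic length, which joins the exons of all annotated transcripts of a gene. For *Scx* these 2719 bases cover the whole span of the gene, beside 1464 bases for *Tnmd*. In CPM the WT means of *Scx* and *Tnmd* were 22.3 and 22.1, so their order per kb depends on this choice of length. In WT, *C1qtnf3* was highest at 34.9 ± 9.48 CPM per kb, followed by *Prss35* at 20.9 ± 1.90, *Tnmd* at 15.1 ± 2.41, *Scx* at 8.19 ± 0.53 and *Mkx* at 2.35 ± 0.34 (SD, n = 5 each). The ranges of *C1qtnf3* and *Prss35* overlapped (20.9 to 45.8 and 18.7 to 23.8 CPM per kb), while *Scx* and *Mkx* each lay apart from their neighbours in the order. In mEC1dup/dup the order was *C1qtnf3* at 19.2 ± 4.99 CPM per kb, *Prss35* at 18.5 ± 0.43, *Tnmd* at 10.01 ± 0.86, *Scx* at 9.70 ± 0.75 and *Mkx* at 2.71 ± 0.33. There the ranges of *Tnmd* and *Scx* also overlapped, at 8.62 to 10.7 and 8.81 to 10.9 CPM per kb.

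A ratio of counts within a library does not depend on its normalization. The ratio of *Tnmd* to *Scx* counts was 0.994 ± 0.14 in WT, with a range of 0.828 to 1.16. It was 0.560 ± 0.08 in mEC1dup/dup, with a range of 0.426 to 0.640 (SD, n = 5 each), below every WT library. The ratio of *C1qtnf3* to *Scx* counts was 2.74 to 5.63 in WT and 1.29 to 2.35 in mEC1dup/dup, again without overlap. That of *Tnmd* to *Mkx* was 0.797 to 1.11 in WT and 0.518 to 0.651 in mEC1dup/dup, also without overlap. That of *Tnmd* to *C1qtnf3* overlapped, at 0.192 to 0.376 in WT and 0.215 to 0.495 in mEC1dup/dup, with the higher mean in mEC1dup/dup (0.305 against 0.250). These ratios were chosen after the values of the genes had been seen and were not tested.

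The lists below were chosen with earlier results of these data known, so their counts beside the shares over all genes are a description. The other genes of tendon formation were read from lists of transcription factors, ligands, receptors, signalling effectors and matrix genes, together with markers of muscle connective tissue. Of 66 such genes 65 were tested, 10 were called lower and 1 higher, beside 1.81% lower and 0.834% higher over all genes tested, and the median log2 fold change was -0.10. All 10 lower calls were among the 23 tendon matrix genes, of which 21 had an estimate below 0 and 7 had every mEC1dup/dup library below every WT library, beside 2.75% over all genes tested. Their median log2 fold change was -0.29, and none was called higher. The summed level of the matrix genes was 18772 CPM in WT replicate 4, below every mEC1dup/dup library (18929 to 21318 CPM), while the other WT libraries lay between 22375 and 28557 CPM. Without WT replicate 4, 22 of the 65 genes were called lower, beside 476 over all genes tested. Without WT replicate 2 or mEC1dup/dup replicate 2 or 3 there were 6, beside 153, 135 and 120 over all genes tested. A block for the replicate number gave 18 lower and 3 higher, beside 487 lower and 200 higher over all genes tested. With *Xist* or the share of embryonic globins as covariate, edgeR called none of these list genes in either direction. At an unadjusted p under 0.05 in edgeR, 14 were lower and 6 higher with *Xist*, beside 816 lower and 559 higher over all genes tested. With the globins 2 were lower and 4 higher, beside 316 lower and 367 higher over all genes tested. With *Xist* the log2 fold changes were -1.23 for *Comp*, -0.94 for *Kera*, -0.55 for *Fmod* and -0.55 for *Col12a1*. Almost all *Xist* counts were in mEC1dup/dup libraries, so that fit separates sex from genotype poorly, and the part of sex was not tested. With the globins *Comp* was at -1.05, *Aspn* at -0.91, *Ogn* at -0.75, *Fmod* at -0.68 and *Lum* at -0.17, *Kera* at -0.011 and *Col12a1* at -0.022 were close to 0, and *Bgn* at 0.33, *Col14a1* at 0.26 and *Sparc* at 0.034 changed sign.

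*Comp*, which encodes a cartilage and tendon matrix protein that binds collagen fibrils, had the largest fall. It was 12.8, 12.8, 17.6, 13.1 and 13.5 CPM in WT and 3.14, 8.10, 6.08, 6.36 and 5.90 CPM in mEC1dup/dup. The groups did not overlap, and the log2 fold change was -1.24 with a standard error of 0.19 (edgeR adjusted p = 0.00640). *Kera*, which encodes keratocan, a small leucine-rich proteoglycan, was 20.7, 19.98, 17.1, 13.96 and 14.7 CPM in WT and 12.7, 9.59, 9.45, 7.98 and 9.42 CPM in mEC1dup/dup. Its groups did not overlap either, with a log2 fold change of -0.82 and a standard error of 0.14 (edgeR adjusted p = 0.0101).

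*Fmod*, which encodes fibromodulin, a proteoglycan that regulates collagen fibril thickness in tendon, was 42.3, 48.3, 42.5, 39.7 and 42.1 CPM in WT and 28.7, 34.3, 35.7, 27.8 and 30.2 CPM in mEC1dup/dup. The log2 fold change was -0.46 with a standard error of 0.08 (edgeR adjusted p = 0.0101), and the groups were separate. The fibril-associated collagen genes *Col12a1* and *Col14a1* were called lower at log2 fold changes of -0.45 and -0.48, with standard errors of 0.06 and 0.10 (edgeR adjusted p = 0.00393 and 0.0238). The mean of *Col12a1* was 429 ± 38.4 CPM in WT and 314 ± 20.2 CPM in mEC1dup/dup, without overlap, whereas the groups of *Col14a1* overlapped. *Aspn*, *Lum*, *Bgn*, *Ogn* and *Sparc* made up the rest of the 10, with log2 fold changes of -0.34, -0.30, -0.31, -0.27 and -0.22. A gene on the opposite strand covers 9.12% of the exonic bases of *Aspn* and 18.8% of those of *Ogn*, so part of their counts may belong to it. When each library was left out in turn, *Comp*, *Kera*, *Fmod*, *Col12a1*, *Aspn* and *Lum* were called in all 10 fits, *Sparc* in 6, *Col14a1* and *Ogn* in 4 and *Bgn* in 2.

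The genes of the main fibrillar collagen of tendon were not called. *Col1a1* was at -0.35 on the log2 scale with a standard error of 0.13 (edgeR adjusted p = 0.188), and that of *Col1a2* was -0.28 with a standard error of 0.10 (edgeR adjusted p = 0.185). *Col1a1* spanned 3650 to 7109 CPM in WT and 4141 to 4640 CPM in mEC1dup/dup, so WT libraries differed more among themselves than did the mEC1dup/dup libraries. *Tnc*, encoding the matrix glycoprotein tenascin C, had a log2 fold change of -0.17 (edgeR adjusted p = 0.288). *Thbs4*, encoding thrombospondin 4 of the muscle and tendon junction, had an estimate in the opposite direction, 0.29 with a standard error of 0.09 and an edgeR adjusted p of 0.138. Neither was called.

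None of the 7 other transcription factor genes of the tendon list was called in either direction, with a median log2 fold change of 0.19. *Egr1*, a zinc finger factor of tendon cells that respond to load, had a log2 fold change of 0.06 (edgeR adjusted p = 0.836). No call was made among the 10 ligand genes tested, the 6 receptor genes or the 8 effector genes, with medians of 0.10, -0.10 and 0.06. *Tgfb2* and *Tgfb3*, ligands needed for tendon progenitors, had log2 fold changes of 0.17 and -0.10 (edgeR adjusted p = 0.222 and 0.376). Of the 11 muscle connective tissue genes 1 was called higher, beside 0.834% over all genes tested. This was *Hic1*, a transcriptional repressor gene of mesenchymal progenitors, which was 243 ± 20.1 CPM in WT and 320 ± 24.8 CPM in mEC1dup/dup (SD, n = 5 each). Its log2 fold change was 0.40 with a standard error of 0.06 (edgeR adjusted p = 0.00788), and every mEC1dup/dup library was above every WT library. It was not called with *Xist* as a covariate, at 0.45, or with the share of embryonic globins, at 0.15. A gene on the opposite strand covers 22.6% of the exonic bases of *Hic1*, so part of its count may belong to that gene.

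**Figure D2:**
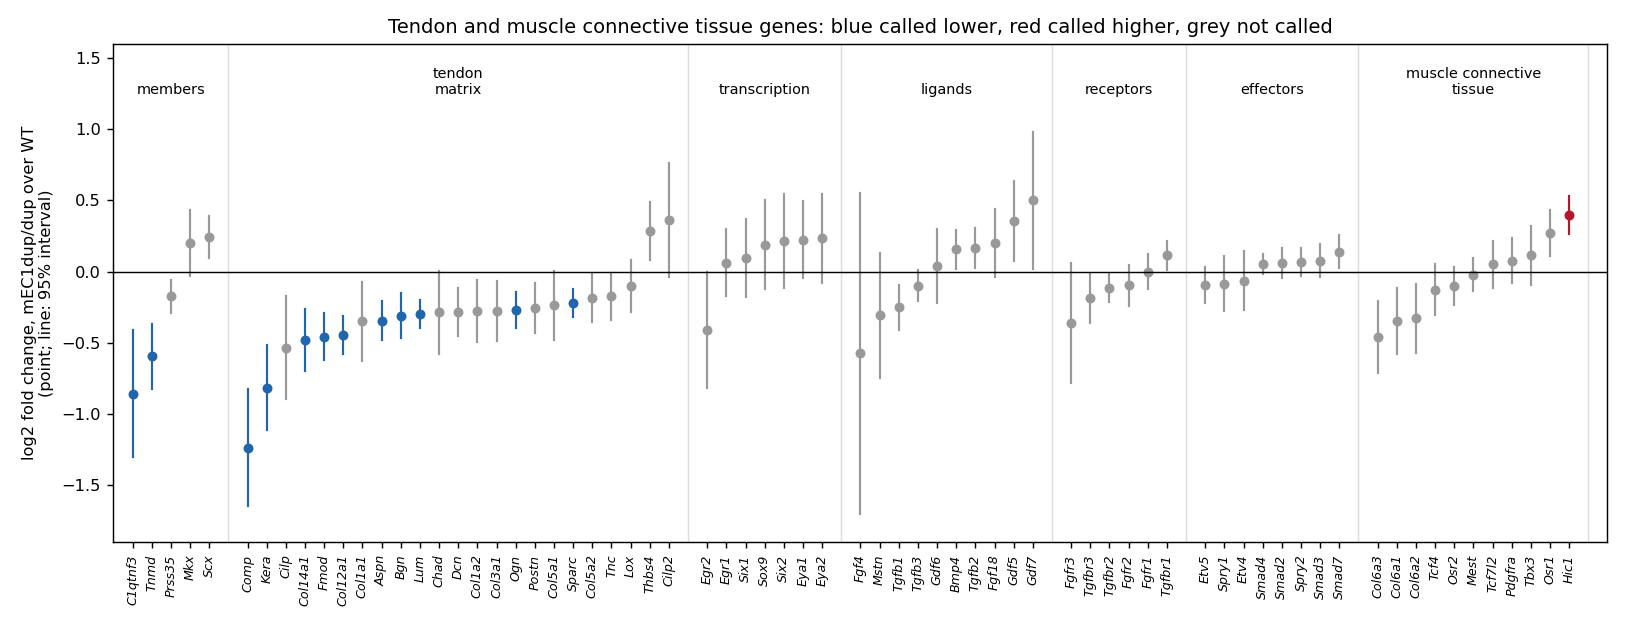
Log2 fold change of mEC1dup/dup over WT (vertical axis, log2 scale) for the 5 genes and for the tested genes of each list, with lines for the 95% interval of edgeR's quasi-likelihood fit, in blue where called lower, red where called higher and grey where not called. The 10 blue points outside the 5 genes are all in the tendon matrix list, from *Comp* at -1.24 to *Sparc* at -0.22, and *Scx* and *Mkx* lie above 0 in grey.

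**Figure D3:**
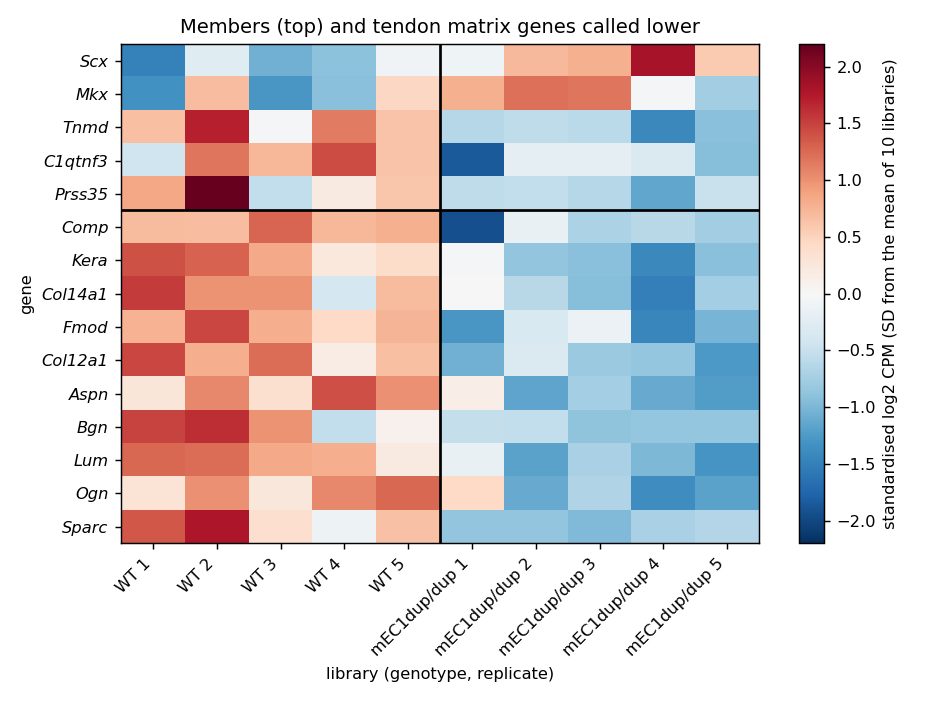
Log2 CPM of the 5 genes and of the 10 tendon matrix genes called lower in each library, standardised to the mean and SD of each gene over 10 libraries, so that colour compares libraries within a gene and not genes with each other. *Tnmd* is below its mean (blue) in every mEC1dup/dup library, and *Scx*, *Mkx* and *Prss35*, shown with them, were not called.

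Profiles over the 10 libraries were set against those of 13150 protein-coding genes by the root mean square difference of standardised log2 CPM, in SD units, where 0 is an identical profile. The closest to *Tnmd* were *Fmo1* at 0.268 and *Fes* at 0.284, and *Fmo1* was itself called lower (log2 fold change -0.65, edgeR adjusted p = 0.0107). *Prss35* lay at 0.420 from *Tnmd*, *C1qtnf3* at 0.713, *Mkx* at 1.45 and *Scx* at 1.76. The closest to *Scx* were *Mdk* at 0.251 and *Cdk4* at 0.265, and *Mdk* was called higher (log2 fold change 0.26, edgeR adjusted p = 0.0124). *Mkx* lay at 0.874 from *Scx*, and its own closest genes were *Batf3* at 0.426 and *Slc25a35* at 0.432. The closest to *C1qtnf3* were *Zic1* at 0.250 and *Dlg2* at 0.334, and the closest to *Prss35* were *Gucy1b1* at 0.328 and *Mboat1* at 0.349. The profiles run over both genotypes, so a difference between genotypes is part of what makes them alike, and these distances are a description.

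Markers of other tissues in the pinna were read from the same fit, in which 1.81% of all genes tested were called lower. Over all genes tested, 1 was called lower with *Xist* as a covariate and 0 with the share of embryonic globins. The marker calls below are those of the fit without covariates, for lists chosen with earlier results of these data known. Of 13 skeletal muscle markers 6 were called lower, with a median log2 fold change of -0.52 over the 13. The called genes were *Acta1*, *Ckm*, *Myh3*, *Myh8*, *Tnnt3* and *Ttn*. The transcription factor genes *Myod1*, *Myog*, *Pax7* and *Myf5* were not called, with log2 fold changes of 0.09, 0.12, -0.06 and -0.27. The summed level of the 13 was 2435 to 3722 CPM in WT and 1543 to 2440 CPM in mEC1dup/dup, ranges that overlapped narrowly. Of 9 epidermal markers 5 were called lower, with a median of -0.64 and summed levels of 964 to 1825 CPM in WT and 717 to 943 CPM in mEC1dup/dup. Of 9 cartilage markers 1 was called lower, with a median of -0.42, and the summed level was 6096 to 9985 CPM in WT and 2602 to 7886 CPM in mEC1dup/dup. mEC1dup/dup replicate 1, lowest in *C1qtnf3* and *Comp*, was also lowest in the cartilage sum. Without that library *Comp* was still called and *C1qtnf3* was not, and *C1qtnf3* was likewise not called when any of 8 of the other 9 libraries was left out. The cartilage sum was 6630 CPM in WT replicate 1, the WT library lowest in *C1qtnf3*, 6158 in WT replicate 4 and 6096 in WT replicate 5. The part of cartilage content in the levels of *C1qtnf3* and *Comp* was not tested. Of 5 dermal fibroblast markers 1 was called lower, and the summed level of the 5 was 1105 to 1329 CPM in WT and 1085 to 1382 CPM in mEC1dup/dup. None of the 4 bone, 5 endothelial, 4 Schwann cell or 6 erythroid markers tested was called. The erythroid list held the adult globin genes *Hba-a1*, *Hbb-bs* and *Hbb-bt* but not the embryonic ones or *Hba-a2*, and over all 7 globin genes *Hbb-y* and *Hba-x* were called higher (log2 fold changes 0.81 and 0.79, edgeR adjusted p = 0.0407 and 0.0458) and *Hba-a2* lower (-0.49, edgeR adjusted p = 0.0416). None of the marker genes was at 0 in all libraries, and the part of these tissues in the levels of the 5 genes was not tested.

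**Figure D4:**
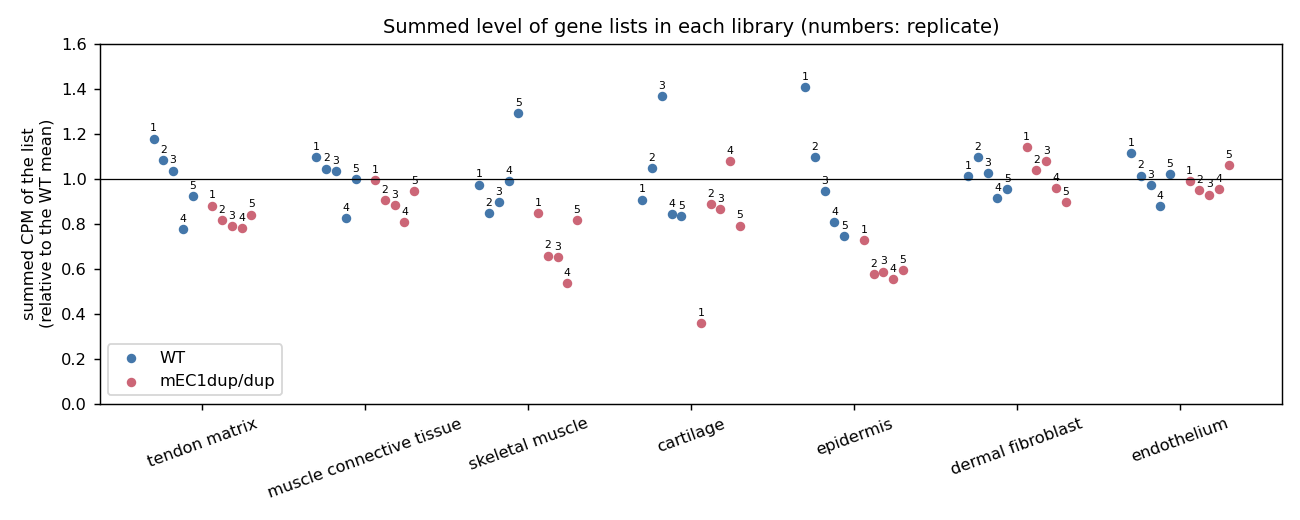
Summed CPM of each gene list per library, divided by the WT mean of that list (vertical axis, linear from 0, line at 1), in WT (blue) and mEC1dup/dup (red), numbered by replicate. The epidermal sums are lower in every mEC1dup/dup library, the skeletal muscle sums overlap narrowly, and mEC1dup/dup replicate 1 stands apart in cartilage at 2602 CPM.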

How the data were processed

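Bulk RNA-seq libraries of 5 WT and 5 mEC1dup/dup E14.5 pinna prominences were used. The authors used fastp for trimming, STAR for alignment to GRCm39 and featureCounts for counting per gene, and they deposited the raw counts. The annotation release, the use of strand and the treatment of reads with several matches are not given in the sources used here, and the sources name different library kits. Replicates were siblings from separate litters, without a record of which libraries share a litter.

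Of 53465 gene identifiers, 49355 were found in GENCODE for GRCm39, the source of symbols and positions. Counts were filtered with filterByExpr by genotype, normalized by TMM and fitted with edgeR version 4.0.16 (glmQLFit, glmQLFTest) in R version 4.3.3, with Benjamini-Hochberg adjustment over 16426 genes. Log2 CPM used a prior count of 2. The steps were tested on simulated data. Libraries of a genotype differed from each other by more than sampling noise. Reads carry no molecular identifiers, and the p-values measure the spread between these embryos.

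Alternatives were DESeq2 size factors, upper quartile scaling or total counts alone, the Wald test of DESeq2 (version 1.42.0), limma-voom (limma version 3.58.1), no filter or at least 10 counts in every library, other thresholds, the replicate number as a block, a covariate for *Xist* or for the share of embryonic globins, and each library left out in turn. The 5 genes and the lists were chosen with earlier results of these data known. The genes named are the 5, *Hmx1* and *Xist*, and the called genes of each tendon, muscle connective tissue and related list (the 5 largest, and for tendon matrix all 10). Further genes were named whatever their values. The 2 closest profiles of each of the 5, among genes with an average log2 CPM of at least 1, were also named. The globin genes and the skeletal muscle markers were named outside this rule, after their values were seen. Single-cell data were not analysed here.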

Additional observations from a re-analysis of the deposited data

Results flagged for a closer look

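Among 56 groups of 5 libraries examined, 3 held a library far from the other 4 of its genotype by Dixon's test, and chance alone gives about 1 such group in 20. *Prss35* was lowest at 90.5 CPM in mEC1dup/dup replicate 4, where the other 4 libraries lay between 94.6 and 95.8 CPM. *Hic1* was highest at 278 CPM in WT replicate 5, where the others lay between 228 and 238 CPM. *Comp* was highest at 17.6 CPM in WT replicate 3, where the others lay between 12.8 and 13.5 CPM.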

How the results depend on the processing

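*Scx* and *Mkx* kept an estimate above 0, and *Tnmd*, *C1qtnf3* and *Prss35* one below 0, under each alternative except *Mkx* with either covariate and *Scx* with the globin covariate. With 1 library left out, the log2 fold change ranged from 0.20 to 0.28 for *Scx*, 0.16 to 0.27 for *Mkx*, -0.67 to -0.50 for *Tnmd*, -0.99 to -0.72 for *C1qtnf3* and -0.21 to -0.12 for *Prss35*. Of the 5 genes 1 to 2 were called lower and 0 to 1 higher, of all genes 120 to 476 lower and 34 to 179 higher (297 and 137 with all libraries), and of the other tendon and muscle connective tissue genes 6 to 22 lower and 1 to 3 higher.

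The Wald test of DESeq2 called *Scx* (0.25), 1 of the 5 genes higher, 510 genes lower and 321 higher over all genes, and 2 of the other tendon genes higher, as did no filter (2). Limma-voom left 1 of the 5 called lower, with *C1qtnf3* at -0.85. An adjusted p of at most 0.01 left 0 of the 5 lower, 62 genes lower and 16 higher over all genes, and 3 of the other tendon genes lower. By edgeR at an unadjusted p under 0.05, 3 of the 5 were lower and 1 higher, beside 1315 lower and 1116 higher over all genes.

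The replicate numbers were tested as a block, and the deviations of same-numbered libraries correlated at -0.06 for replicate 1 and at 0.23 to 0.43 for the other 4, with a mean of 0.23 against -0.057 for other pairs. Of 5 WT libraries 2 correlated best with their own number. As replicate 1 did not correlate, the numbers were not taken as a pairing. The ratio of *C1qtnf3* within a number was 0.477 to 0.677 in all 5. The replicate block gave 487 genes lower and 18 other tendon genes lower and 3 higher, with *C1qtnf3* at -0.86 (edgeR adjusted p = 0.000379), *Tnmd* at -0.59 and *Scx* at 0.24, and it changed no call among the 5 genes.

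With *Xist* as a covariate edgeR gave -0.067 for *Mkx*, -0.69 for *Tnmd* and -0.98 for *C1qtnf3*, with 0 of the 5 called lower, 1 gene lower and 2 higher over all genes, and 0 other tendon genes either way. At an unadjusted p under 0.05 in that fit, 14 other tendon genes were lower and 6 higher, with 2 of the 5 lower and 1 higher. Over all genes 816 were lower and 559 higher at that p. With the share of embryonic globins as covariate it gave -0.0099 for *Scx*, -0.88 for *Mkx*, -1.24 for *Tnmd* and -2.74 for *C1qtnf3*, with 0 calls over all genes and in each list (316 lower and 367 higher at an unadjusted p under 0.05, with 3 of the 5 lower and 0 higher). The globin share does not overlap between the genotypes, so the 2 cannot be told apart in that fit. Almost all *Xist* counts were in mEC1dup/dup libraries, so the *Xist* fit separates sex from genotype poorly. The cause of the other changes was not tested. Depth limits most the genes of lowest count, *Comp* and *Kera* among those shown in full.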

Other observations

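Relatives of the 5 genes were read from a list of 16, of which 15 were tested and 1 was called lower, beside 1.81% over all genes tested. *C1qtnf1*, a paralogue of *C1qtnf3*, was 31.5 ± 3.09 CPM in WT and 25.5 ± 1.53 CPM in mEC1dup/dup (SD, n = 5 each), with overlapping groups, a log2 fold change of -0.31 and an edgeR adjusted p of 0.0407. That call was kept in 3 of the 10 fits that left out 1 library. It was lost with *Xist* as a covariate (-0.34) and with the share of embryonic globins, where the direction turned (0.25). *Cnmd*, which encodes chondromodulin, the cartilage relative of tenomodulin, had a log2 fold change of -0.53 with a standard error of 0.23 (edgeR adjusted p = 0.265) and was lowest in mEC1dup/dup replicate 1 at 79.1 CPM, the library lowest in the cartilage markers. *Prss23*, the relative of *Prss35*, had a log2 fold change of 0.15 (edgeR adjusted p = 0.488), and *Tcf15*, the relative of *Scx*, of -0.03 (edgeR adjusted p = 0.947).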
